A study of Mus musculus with 8 samples.

Results

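Regions were examined in which trimethylation of lysine 9 of histone H3 (H3K9me3) was called as a run of closely spaced peaks in mouse mesenchymal stem cells lacking the demethylase KDM4B, and not at all in cells with the gene. Peaks of the H3K9me3 list from Kdm4b knockout (KO) cells were merged where the gap between neighbours was 1000 bp or less. A merged region was kept as a cluster when it lay on an autosome, was made of 3 or more peaks and overlapped no H3K9me3 peak of the wild-type (WT) list. Of the 42246 merged regions in the KO list, 42168 were on the 19 autosomes and 2562 of these were clusters, or 6.08% (95% exact binomial interval 5.85 to 6.31%). The peaks that chose the clusters are the same ones that give their number, size and absence from WT, so these are a description and carry no test.

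H3K9me3 is laid down by methyltransferases such as SETDB1 and the SUV39H enzymes, and is read by HP1 proteins, which bind it and compact chromatin. It is best known from silent chromatin over repeated DNA near centromeres, over transposons and over families of zinc finger genes. KDM4B belongs to a family of demethylases that take methyl groups off the same residue, and in marrow stroma it has been studied for its part in the choice between bone and fat formation.

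The cells were primary bone marrow mesenchymal stem cells, stromal cells that can form bone and fat, after 4 hours of osteogenic induction. KO cells came from Prx1Cre; Kdm4bf/f mice and WT cells from Prx1Cre; Kdm4bw/w mice, so both genotypes carry the Cre recombinase, driven by the Prx1 promoter of limb mesenchyme. The labels used here give no age, sex or number of animals for a library, and peak lists hold no expression values with which the cell label could be checked. The lists used here were H3K9me3 in KO cells, with 55306 peaks, H3K9me3 in WT cells, with 943 peaks, and KDM4B in WT cells, with 32017 peaks, each from 1 library of chromatin immunoprecipitation sequencing (ChIP-seq). The KDM4B antibody gave 35 peaks in KO cells. Sequencing depth, peak scores and thresholds are unknown for these lists, there is no replicate, and the 95% intervals below cover counting error only. Positions are in build mm9. Which genes the clusters lie in was not analysed here, because the gene table at hand is of another build.

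The clusters held 9117 of the 55158 autosomal KO peaks, or 16.5% (16.2 to 16.8%), with 17.7% of the length those peaks cover. Together the clusters spanned 5.55 Mb, of which peaks covered 2.99 Mb. Most were short runs. A count of 3 peaks was found in 1710 clusters, 4 peaks in 534, 5 peaks in 201, and 6 or more in 117. Clusters of 10 or more peaks numbered 11, and the largest had 13. Span ran from 0.756 kb over a median of 1.96 kb to 9.75 kb, with 25% of clusters under 1.55 kb and 25% above 2.53 kb. A span of 3 kb or more was reached by 341 clusters and one of 5 kb or more by 50. The number depended on the rule: 4 or more peaks left 852 clusters, a gap of 500 bp or less left 1379, KO peaks wider than the smallest width left 1718, and a gap of 2000 bp or less gave 3814.

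**Figure D1:**
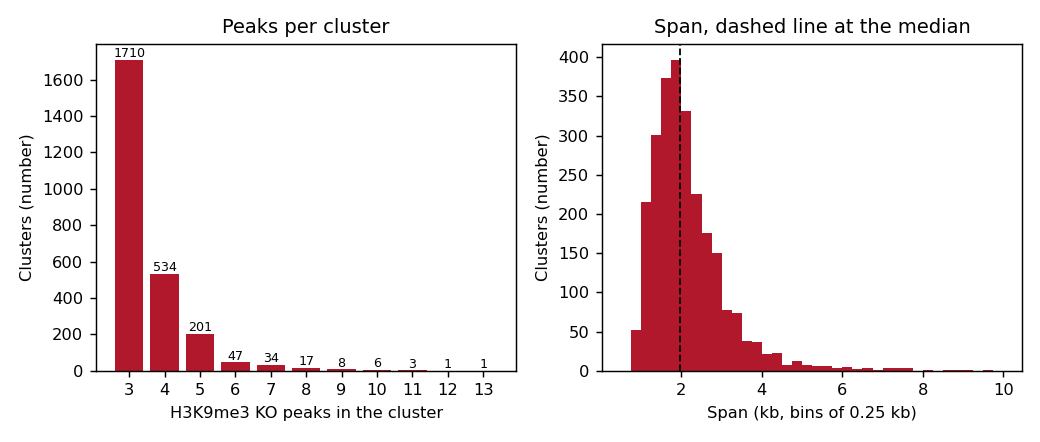
Number of clusters by the count of H3K9me3 KO peaks they hold (left) and by span in kb (right, dashed line at the median of 1.96 kb), for the 2562 clusters. The number of clusters falls steeply with each added peak, with 1710 clusters of 3 peaks and 1 of 13.

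Within the clusters peaks were narrow and interrupted by gaps. The median peak width was 277 bp inside clusters and 251 bp in KO-only regions of 1 or 2 peaks. The smallest width of the list, 199 bp, was held by 15.9% of peaks in clusters (15.2 to 16.7%) and by 21.9% of peaks in regions of 1 or 2 (21.5 to 22.3%). Peaks of 1 kb or more were rare in both, with 60 of 9117 in clusters, or 0.658% (0.503 to 0.846%), and 146 of 45641 in regions of 1 or 2 peaks, or 0.320% (0.270 to 0.376%). Each of those 60 wide peaks sat in a cluster of its own, so 2.34% of clusters contained one. Clusters thus had fewer peaks of the smallest width and more wide ones, and held 60 of the 206 peaks of 1 kb or more in KO-only regions, or 29.1% (23.0 to 35.8%). Gaps between neighbouring peaks had a median of 324 bp, a smallest value of 51 bp, and were 250 bp or less in 40.2% of 6555 cases. The distance between the centres of neighbouring peaks had a median of 671 bp. Peaks covered a median of 54.9% of a cluster's span. Outermost and inner peaks were of nearly the same width, with medians of 274 and 280 bp.

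The limits of the rule ran through a continuum. Among the clusters, 322 contained a gap of 901 to 1000 bp, and 132 had a further KO peak at 1001 to 1100 bp that was just too far to join. Outside the rule, 214 KO-only regions of 2 peaks had a further KO peak at 1001 to 1100 bp. The nearest misses lay at exactly 1001 bp, on chromosome 5 from 25003550 to 25004452, chromosome 10 from 80936042 to 80937477 and chromosome 11 from 119375721 to 119376561. The longest regions of 2 peaks spanned 2.72 kb on chromosome 13 from 63664321 to 63667037, 2.51 kb on chromosome 13 from 108678780 to 108681285 and 2.41 kb on chromosome 11 from 97578658 to 97581069, longer than the median cluster. The shortest clusters spanned 0.756 kb on chromosome 12 from 113911217 to 113911972, 0.776 kb on chromosome 4 from 45421228 to 45422003 and 0.81 kb on chromosome 2 from 27526686 to 27527495. On the side of absence from WT, 43 autosomal regions of 3 or more KO peaks overlapped a WT peak and were left out. The WT list is short, and the median distance to its nearest peak was 1529 kb for clusters, 1628 kb for KO-only regions of 2 peaks and 1746 kb for single peaks. A WT peak lay within 10 kb of 14 clusters and within 100 kb of 142, and the closest stood 0.335 kb away.

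The largest clusters were long ladders of narrow H3K9me3 peaks. The cluster with the most peaks lay on chromosome 5 from 34338212 to 34347041 and had 13 peaks in 8.83 kb. Its first peak was 927 bp wide and the other 12 ran from 199 to 393 bp, with gaps of 91 to 981 bp. It stood almost alone, with 3 other KO peaks and 1 KDM4B peak within 50 kb. That 1 KDM4B peak, 252 bp wide, overlapped the first KO peak. The next, on chromosome 10 from 79773107 to 79781239, had 12 peaks in 8.13 kb in a crowded setting, with 44 other KO peaks and 11 KDM4B peaks within 50 kb. Its KDM4B peaks, 2 in number, lay in gaps and touched none of the 12 KO peaks.

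Clusters of 11 peaks were found on chromosome 12 from 113901175 to 113910194, over 9.02 kb, on chromosome 8 from 123090351 to 123099022, over 8.67 kb, and on chromosome 5 from 124444722 to 124451989, over 7.27 kb. The first pair held 2 KDM4B peaks each, over 15.0 and 7.95% of their span, and the other one had its nearest KDM4B peak 17.2 kb away. The widest span of any cluster, 9.75 kb, belonged to 10 peaks on chromosome 11 from 120141819 to 120151564, which included a peak of 1468 bp and lay 26.0 kb from KDM4B. Of the other clusters of 10 peaks named by count and then span, those on chromosome 7 from 52133466 to 52141201 and chromosome 2 from 25145722 to 25152830 held no KDM4B peak. Those on chromosome 16 from 17800735 to 17808117 and chromosome 2 from 118721958 to 118729317 held 1 and 2.

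**Figure D2:**
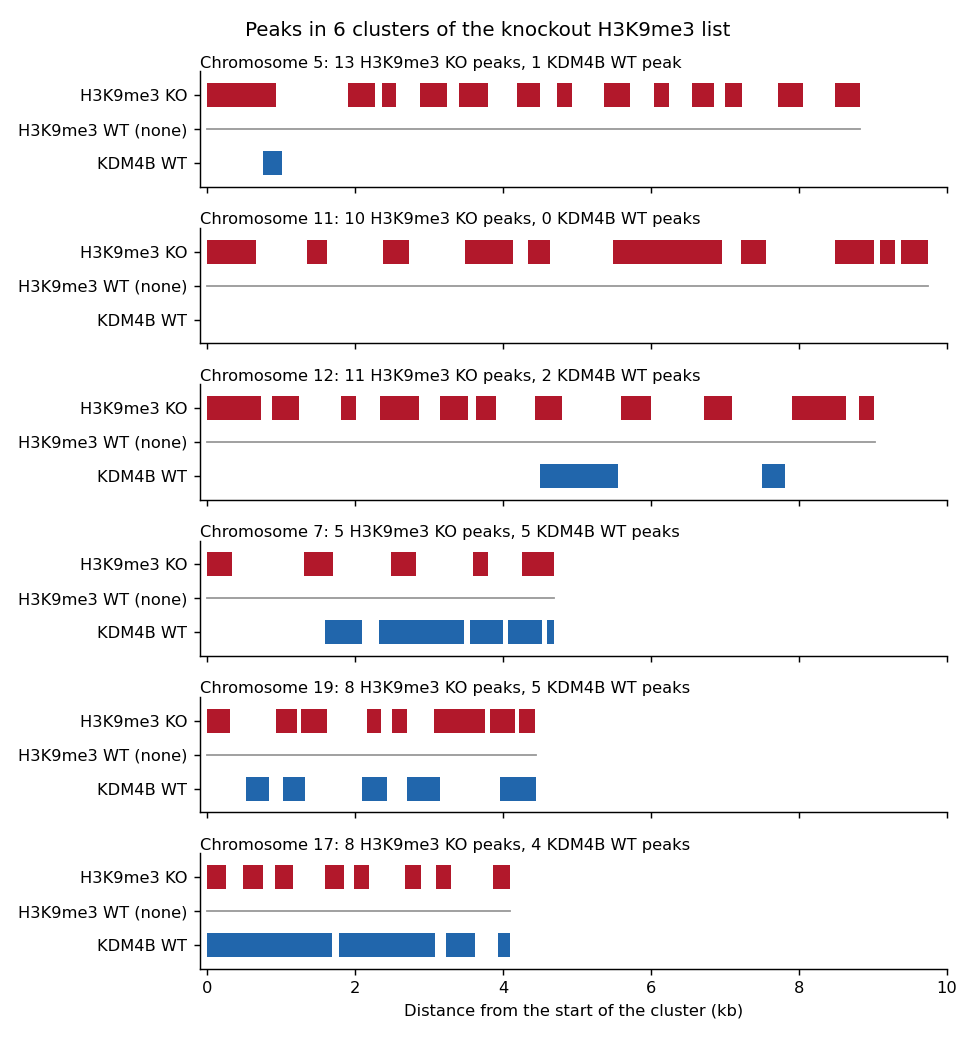
Peaks of the H3K9me3 KO list (red) and the KDM4B WT list (blue) in 6 clusters, drawn from each cluster's start in kb, with KDM4B peaks cut at the cluster's ends; the grey line stands for the H3K9me3 WT list, which has no peak there. The top 3 maps are clusters named for their number of peaks or span, where KDM4B covers 0 to 15.0% of the span; the lower 3 are clusters named for their KDM4B peaks, where it covers 41.9 to 86.6%.

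KDM4B of WT cells, which the rule did not use, overlapped 748 of the 2562 clusters, or 29.2% (27.4 to 31.0%). The background, the same overlap in the 39405 KO-only regions of 1 or 2 peaks, was 14.9% (14.5 to 15.2%), and in all KO-only autosomal regions it was 15.8%. Regions of 2 peaks alone had 25.2% (24.2 to 26.3%). A cluster is longer than a single peak and so has more room for an overlap. Measured in a window of the same 2 kb around the midpoint, the shares were 28.6% (26.8 to 30.4%) for clusters, 27.0% (25.9 to 28.1%) for regions of 2 peaks and 16.7% (16.3 to 17.1%) for single peaks. Counted per KO peak, 20.2% of peaks in clusters (19.4 to 21.0%) overlapped KDM4B, against 20.4% of peaks in regions of 2 (19.7 to 21.1%) and 12.9% of single peaks (12.6 to 13.3%). Over all autosomal KO peaks that share was 15.8%. The largest step thus lay between 1 peak and 2. Clusters and regions of 2 peaks had overlapping intervals in the matched window and per peak, and separate ones over the whole span. These shares come from 1 library of each kind and were not tested.

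**Figure D3:**
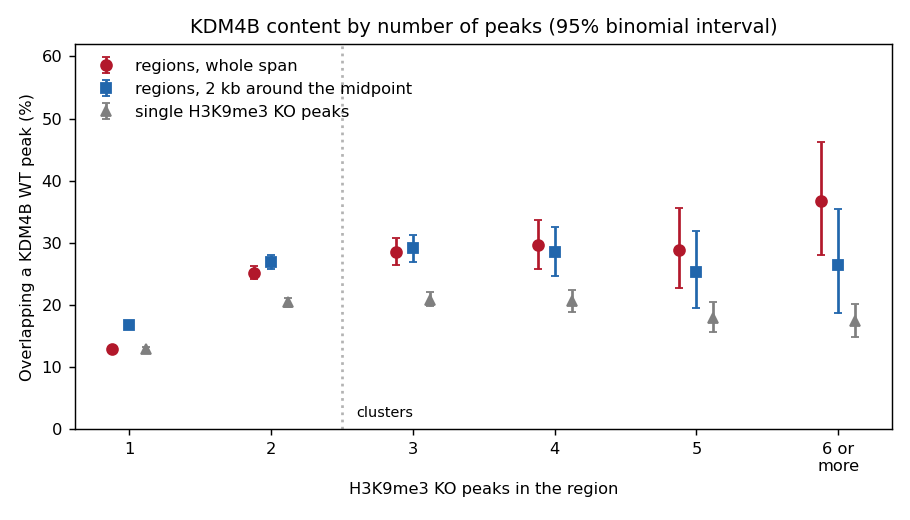
Share of KO-only regions that overlap a KDM4B WT peak, over their whole span or in 2 kb around the midpoint, and share of single H3K9me3 KO peaks that do, by the number of KO peaks in the region; bars are 95% exact binomial intervals, and regions right of the dotted line are the clusters. Shares step up between 1 and 2 peaks. From 2 to 3 peaks the whole-span share goes from 25.2 to 28.6%, with intervals apart, while those of the other shares overlap. From 3 to 5 peaks the intervals of each share overlap. Over these, the share of single peaks goes from 20.9 to 17.9% and that in the 2 kb window from 29.1 to 25.4%.

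Among the clusters, the share with KDM4B was close over clusters of 3 to 5 peaks, while KDM4B peaks per 100 kb were fewer in larger ones. KDM4B was found in 28.6% of clusters of 3 peaks (26.5 to 30.8%), 29.6% of those of 4 (25.7 to 33.7%), 28.9% of those of 5 (22.7 to 35.6%) and 36.8% of those of 6 or more (28.0 to 46.2%), which are also the longest. KDM4B was present in 7 of the 11 clusters of 10 or more peaks, or 63.6% (30.8 to 89.1%). In the 2 kb window around the midpoint, the share was 26.5% (18.8 to 35.5%) for clusters of 6 or more peaks. For all clusters it was 28.6% (26.8 to 30.4%) in that window. Per peak the share was 20.9% in clusters of 3 (19.8 to 22.0%) and 17.4% in clusters of 6 or more (14.9 to 20.1%). KDM4B peaks per 100 kb of span numbered 23.0 in clusters of 3 peaks (21.3 to 24.8), 19.4 in clusters of 4 (17.1 to 21.9), 17.7 in clusters of 5 (14.7 to 21.3) and 13.7 in clusters of 6 or more (10.8 to 17.0). Over all clusters there were 20.5 (19.3 to 21.7), and 13.5 when only KDM4B peaks of at least the median width were counted. The same density was 30.2 in regions of 2 peaks and 46.1 in single peaks, where an overlap at the edge counts for more of a short span, and 1.31 over the whole autosomal span. KDM4B covered 16.4% of the clusters' span, 16.1% of that of regions of 2 peaks, 12.9% of that of single peaks and 0.992% of the autosomal span. This covered part changed less with cluster size than the count per 100 kb. It was 16.8% in clusters of 3 peaks, 17.5% in those of 4, 14.6% in those of 5 and 14.6% in those of 6 or more. Clusters with and without KDM4B were close in size, with median spans of 1.965 and 1.9545 kb.

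Where KDM4B met a cluster, the extent of the overlap varied. In 10 of the 748 clusters KDM4B lay in gaps alone and in 738 it touched at least 1 KO peak, which gaps shorter than most KDM4B peaks make likely whatever their placing. Every KO peak of the cluster was overlapped in 313 of the 748, or 41.8% (38.3 to 45.5%), and a single KO peak in 169, or 22.6% (19.6 to 25.8%). Position within the run made little difference, with 19.6% of outermost peaks (18.5 to 20.7%) and 21.0% of inner peaks (19.7 to 22.3%) overlapping KDM4B. A single KDM4B peak was present in 455 clusters, 2 in 213, 3 in 65, 4 in 12 and 5 in 3. KDM4B covered a median of 59.3% of the span of the 748 clusters, and 98 clusters lay wholly under it.

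The clusters with the most KDM4B peaks were longer than most, at 2.80 to 4.69 kb, and had 3 to 8 KO peaks. On chromosome 7 from 29952826 to 29957515, 5 KO peaks in 4.69 kb met 5 KDM4B peaks that covered 56.5% of the span. On chromosome 19 from 5095906 to 5100344, 8 KO peaks in 4.44 kb met 5 KDM4B peaks over 41.9% of the span, and 6 of the 8 overlapped one. The cluster on chromosome 4 from 55542849 to 55545644 had only 3 KO peaks, all on KDM4B, with 5 KDM4B peaks over 50.04% of its 2.80 kb and no other KO peak within 50 kb. A second cluster of chromosome 4, from 43437784 to 43442057, had 7 KO peaks and 4 KDM4B peaks over 72.6% of the span. On chromosome 17 from 56155765 to 56159855, 4 KDM4B peaks covered 86.6% of the span and touched all 8 KO peaks, which were 207 to 273 bp wide. None of these was among the 10 clusters with the most KO peaks.

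Seen from KDM4B, the clusters took up a small part of its sites and a larger part of its wide ones. Of 31556 autosomal KDM4B peaks, 1135 overlapped a cluster, or 3.60% (3.39 to 3.81%), and 19.8% (19.4 to 20.3%) overlapped a KO-only region of 1 or 2 peaks. The share touching a cluster was 19.8% (16.7 to 23.3%) for the 595 KDM4B peaks of 3 kb or more, 5.77% (5.18 to 6.40%) for those of 1 kb to under 3 kb, 3.12% (2.77 to 3.49%) for those of 510 to 999 bp and 2.49% (2.25 to 2.74%) for narrower ones. Wide peaks overlap more by their length alone. The part of their covered length that lay inside clusters was 8.19% for KDM4B peaks of 3 kb or more and 2.20% for those under 510 bp, whereas regions of 1 or 2 KO peaks took 7.99 and 7.58%. For KDM4B peaks of 510 to 999 bp, clusters took 2.59% and regions of 1 or 2 KO peaks 10.2%. For those of 1 kb to under 3 kb, the parts were 4.30 and 10.9%. KDM4B peaks that met a cluster had a median width of 774 bp, those that met only regions of 1 or 2 KO peaks 760 bp, and the rest 461 bp. Only 4 KDM4B peaks touched 2 clusters, the widest of them 15.0 kb on chromosome 10 from 79610386 to 79625388.

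Nearly as many clusters had no KDM4B in their surroundings as had it close by. The nearest KDM4B peak was within 10 kb of 1322 clusters, or 51.6% (49.6 to 53.6%), and more than 10 kb away from 1240, or 48.4% (46.4 to 50.4%). It was more than 100 kb away from 232. For regions of 1 or 2 peaks the share beyond 10 kb was 62.3% (61.8 to 62.8%). The median distance to KDM4B was 8.98 kb for clusters, 12.9 kb for regions of 2 peaks and 21.5 kb for single peaks. Clusters beyond 10 kb were built like the rest, with a median span of 1.95 kb and a mean of 3.53 peaks. The largest of them, besides the clusters on chromosomes 5, 11 and 2 given above, had 9 peaks each on chromosome 11 from 119874397 to 119882118 and on chromosome 15 from 85406009 to 85413583, 13.5 and 51.7 kb from KDM4B.

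KDM4B peaks were most frequent at the cluster itself. In the 1 kb before and the 1 kb after cluster midpoints, by coordinate, there were 164 and 166 KDM4B midpoints per 1000 clusters, with 92.1 between 1 and 2 kb before them and 48.0 (39.9 to 57.3) between 19 and 20 kb after them. The same inner bins had 156 and 160 per 1000 regions of 2 peaks and 89.6 and 91.3 per 1000 single peaks. At 19 to 20 kb after, the intervals of clusters and of regions of 2 peaks, 46.5 (41.3 to 52.3), overlapped, and single peaks had 34.9 (32.9 to 36.9). Nearer in, these intervals were apart in some bins and overlapped in others. Between 1 and 2 kb before the midpoint, clusters had 92.1 (80.7 to 104.6) and regions of 2 peaks 64.1 (58.0 to 70.7). Between 8 and 9 kb after it, the values were 63.6 (54.2 to 74.2) and 47.3 (42.1 to 53.0). Clusters had the higher value in every bin out to 20 kb except from 18 to 17 and from 16 to 15 kb before the midpoint. In the latter bin they had 41.8 (34.2 to 50.5) against 47.0 (41.8 to 52.7). Between 20 and 19 kb before it, the values were 51.1 (42.8 to 60.7) and 38.5 (33.8 to 43.7). These differences were not tested.

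**Figure D4:**
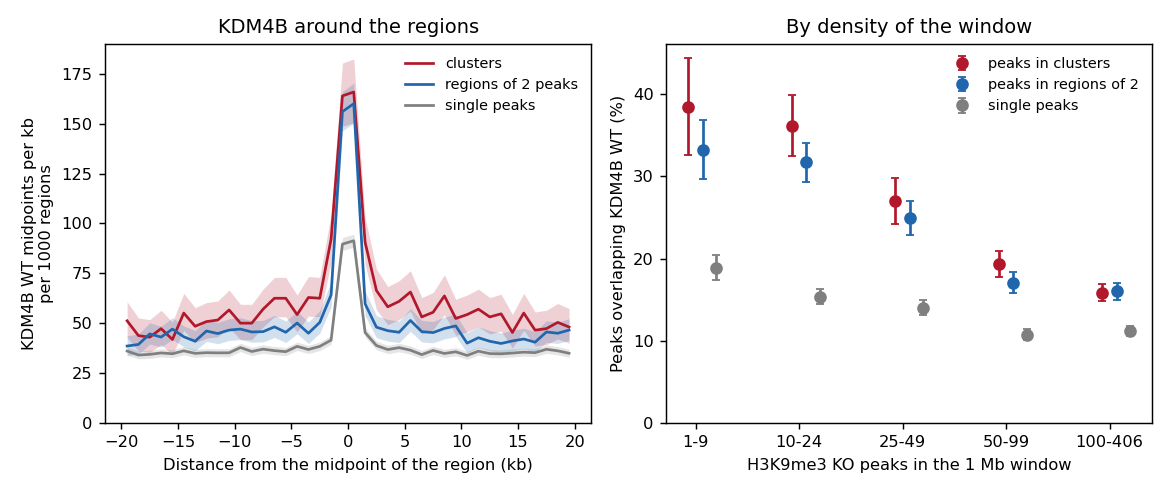
Left, KDM4B WT peak midpoints per kb and per 1000 regions, by distance from the midpoint of clusters, regions of 2 peaks and single peaks (bands are 95% Poisson intervals). Right, share of H3K9me3 KO peaks that overlap KDM4B in clusters, in regions of 2 peaks and alone, in 1 Mb windows grouped by their number of KO peaks (bars are 95% exact binomial intervals). Shares are lower in the densest class than in the sparsest. Those of clusters are above those of regions of 2 in every class but the densest, with overlapping intervals in each class.

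The clusters were concentrated on chromosomes where the KO list was dense. Chromosome 11 had 289 clusters, or 2.43 per Mb (2.16 to 2.73), followed by chromosome 19 with 1.82 per Mb (1.49 to 2.20), chromosome 17 with 1.76 (1.497 to 2.05) and chromosome 15 with 1.70 (1.45 to 1.97). Chromosome 3 was lowest, with 49 clusters or 0.313 per Mb (0.232 to 0.414), near chromosome 1 with 0.377 (0.296 to 0.474). The mean over the autosomes was 1.07 per Mb. Over the 19 autosomes cluster density went with the density of all KO peaks, with a Pearson r of 0.97 and a Spearman rho of 0.94, and with that of KDM4B, with 0.83 and 0.79; the first holds in part by construction, since clusters are made of KO peaks, and all lists share the same chromosomes. The share of KO peaks that lay in clusters ran from 9.77% on chromosome 1 (8.65 to 10.98%) to 24.1% on chromosome 10 (22.5 to 25.7%).

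**Figure D5:**
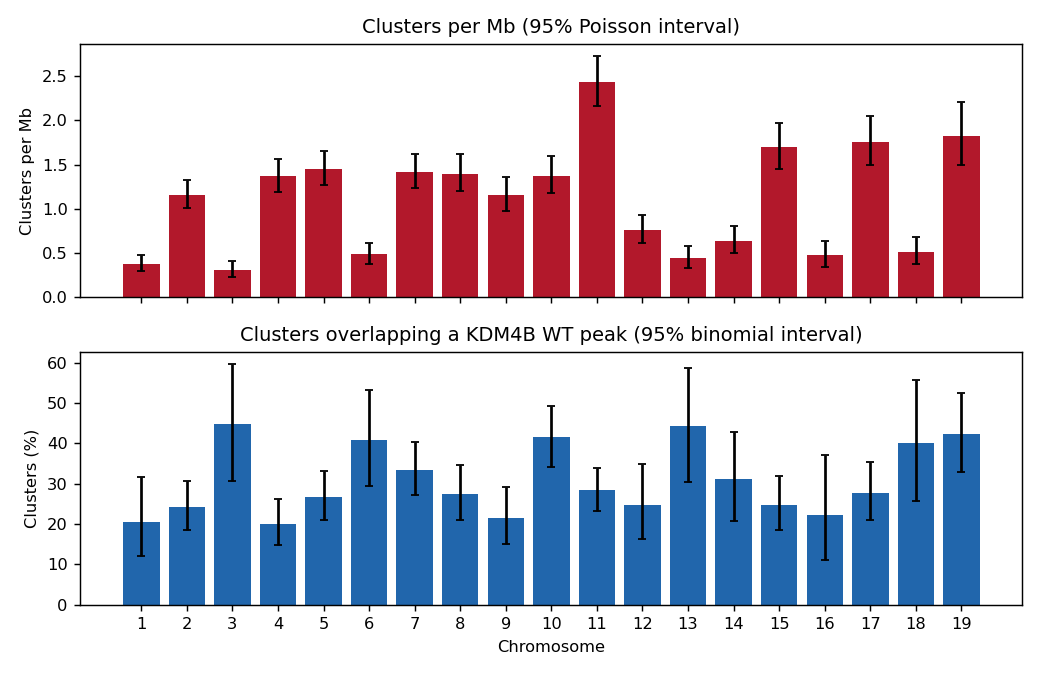
Clusters per Mb (top, 95% Poisson intervals) and share of clusters that overlap a KDM4B WT peak (bottom, 95% exact binomial intervals) on each autosome. Chromosome 11 has the highest density, 2.43 per Mb. The highest KDM4B shares are those of chromosome 3, 44.9% of 49 clusters (30.7 to 59.8%), and chromosome 13, 44.2% of 52 (30.5 to 58.7%).

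KDM4B content varied between chromosomes without following cluster density. It was highest on chromosome 3, where 22 of 49 clusters held a KDM4B peak, or 44.9% (30.7 to 59.8%), on chromosome 13 with 44.2% (30.5 to 58.7%), on chromosome 19 with 42.5% (32.9 to 52.4%) and on chromosome 10 with 41.6% (34.2 to 49.3%). It was lowest on chromosome 4, where 42 of 209 clusters did, or 20.1% (14.9 to 26.2%). Chromosome 11, with the most clusters, stood at 28.4% (23.2 to 33.9%). Across the 19 autosomes this share and cluster density had a Pearson r of -0.21 and a Spearman rho of -0.05.

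On a finer scale the clusters were crowded into few windows. At least 1 cluster lay in 754 of the 2041 autosomal windows of 1 Mb that held a KO peak, and 117 windows sufficed for 50% of all clusters. The 56 windows with 10 or more clusters held 819, or 31.97% (30.2 to 33.8%). The fullest were neighbours on chromosome 10, with 51 clusters from 80000001 to 81000000 and 42 from 79000001 to 80000000, then chromosome 7 from 52000001 to 53000000 with 21. In the first pair, 49.01 and 44.8% of all KO peaks lay in clusters, and 33 of their 93 clusters held KDM4B, or 35.5% (25.8 to 46.1%), against 29.0% (27.2 to 30.8%) of clusters elsewhere. The windows from 140000001 on chromosome 4 and from 78000001 on chromosome 15 had 20 clusters each, of which 2 in either held KDM4B, and the window from 151000001 on chromosome 4 had 15, none with KDM4B. In that order, 2 of 73, 4 of 64 and 0 of 50 KO peaks in clusters overlapped KDM4B. Of KO peaks in regions of 1 or 2 there, 12 of 190, 23 of 150 and 12 of 168 did, against 15.0% over all autosomes.

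Clusters also followed one another in chains. Another cluster lay within 10 kb of 671 clusters, or 26.2% (24.5 to 27.9%), and the median distance to the next was 38.2 kb. Joined over gaps of up to 10 kb, these 671 made 286 chains, 19 of them of 4 or more clusters. The longest had 7 clusters with 32 KO peaks over 46.7 kb on chromosome 10 from 80764924 to 80811657, and the next 6 clusters with 32 KO peaks over 45.4 kb on the same chromosome from 80848922 to 80894353. Another chain there, from 79468765 to 79502701, had 6 clusters, 4 of them with KDM4B. Away from chromosome 10, 5 clusters on chromosome 7 from 148643805 to 148668885 all held KDM4B, with 13 KDM4B peaks in 25.1 kb, whereas 5 clusters on chromosome 11 from 118343166 to 118365646 held none. No WT H3K9me3 peak fell inside any of these 5 chains. For the clusters the rule fixes this, and a list of 943 WT peaks has little room to fall between them.

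The density of the window moved with KDM4B content. In windows with 1 to 9 KO peaks, 38.4% of peaks in clusters overlapped KDM4B (32.6 to 44.4%), against 33.2% of peaks in regions of 2 (29.7 to 36.8%) and 18.9% of single peaks (17.4 to 20.4%). In windows with 10 to 24 the shares were 36.2% (32.5 to 40.0%) in clusters, 31.7% (29.4 to 34.1%) in regions of 2 and 15.35% (14.4 to 16.3%) in single peaks. In windows with 25 to 49 they were 27.0% (24.2 to 29.9%), 24.9% (22.9 to 27.0%) and 14.01% (13.2 to 14.9%) for clusters, regions of 2 and single peaks. Each of the 3 kinds of peak thus had a lower share in the third class than in the first. In windows with 50 to 99 the shares were 19.3% (17.8 to 20.9%) in clusters, 17.0% (15.8 to 18.3%) in regions of 2 and 10.7% (10.1 to 11.4%) in single peaks. In windows with 100 to 406 they were 15.9% (14.8 to 16.9%) in clusters, 16.0% (14.99 to 17.1%) in regions of 2 and 11.2% (10.5 to 11.8%) in single peaks. The intervals of clusters and of regions of 2 peaks overlapped in each of the 5 classes, and those of clusters and single peaks in none. Clusters nevertheless had a higher share than regions of 2 in every class except the densest. Over all windows together the shares were 20.2% in clusters and 20.4% in regions of 2. Overlapping intervals do not show the shares to be alike, and the differences were not tested. The densest class had the largest number of clusters, 1252 of the 2562, and held 41 KDM4B peaks per window at the median, against 3 in the sparsest.

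The clusters held no peak of the KDM4B KO list or of the H3 lists. Peaks of KDM4B in KO cells and of total histone H3 in KO or WT cells overlapped 0 of the 2562 clusters, which puts the limit of the share at 0.117% for each list, and lay within 10 kb of 0. Those lists are short, with 35, 28 and 38 peaks, and have little room to overlap anything. Leaving out regions within 10 kb of them moved the KDM4B share of KO-only regions of 1 or 2 peaks only from 14.8788 to 14.8804%. The share of those regions that the lists overlap is not given here, so the 0 does not set the clusters apart from them. By contrast, the 43 regions of 3 or more KO peaks that did overlap WT H3K9me3 were wider and more filled, with a median span of 3.47 kb and a median of 70.2% covered, and 6 of them held KDM4B, or 13.95% (5.30 to 27.9%). Their median distance to KDM4B was 83.9 kb.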

How the data were processed

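ChIP-seq was carried out with chromatin sheared to 200 to 500 bp, per the labels' protocols, and read on either of a pair of Illumina sequencers; which one read which library is not stated there. The tools are Bowtie, SAMtools, MACS (KDM4B) and MACS2 (H3K9me3 and H3), per the submitters' processing notes, which name builds mm9 and hg19. The H3K9me3 ChIP carried a yeast chromatin spike-in, per the series' design text; whether it entered the calls, the versions and thresholds, and narrow or broad mode are details not given in the sources used here. The H3 WT table came from MACS2 2.1.4 with a q-value cutoff of 0.05, per the file headers. Of that table, only chromosome, start and end were used. The H3K9me3 lists and the KDM4B WT list, deposited by the authors, hold chromosome, start and end, with no score. Their start and end columns were the values used. Starts were read as counted from 0; were they counted from 1, starts would be 1 bp lower.

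Peaks reached past the end of the GRCm38.p6 gene table on 9 of 21 chromosomes, so that table was not used, no sequence is printed and the planned gene setting and gene lists were not analysed here. Overlap means at least 1 shared bp. Intervals are exact binomial (Clopper-Pearson) or exact Poisson at 95%. Neighbouring peaks are not independent. Merging and overlaps ran in Python 3.11.15 with numpy 2.4.6, scipy 1.17.1 and pandas 2.3.3, were tested on simulated data, and matched bedtools 2.31.1 in 18 of 18 comparisons. Chromosome length was taken as the distance spanned by all lists together. Named clusters are the 10 with the most KO peaks, the 5 longest, the 5 with the most KDM4B peaks, the 5 with the most KO peaks beyond 10 kb from KDM4B, the 3 shortest, the 3 fullest windows and the nearest regions outside the rule. The chains and the windows of chromosomes 4 and 15 were chosen after their values were seen. The members and lists were chosen with earlier results of these data known. The 2 input samples were not analysed here.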

Additional observations from a re-analysis of the deposited data

How the results depend on the processing

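No paired analysis was possible because each group has 1 library. The KDM4B share was higher in clusters than in regions of fewer peaks under all 12 settings in which both were computed, the main one included. The latter, most of them single, were regions of 1 or 2 peaks, or of fewer than 4 where 4 or more were required. Against regions of 2 peaks alone, a comparison added after seeing the data, the clusters' share was higher in 13 of 13 settings. These include the main one and some that keep nearly the same regions. Intervals were apart in 12, which compare whole regions of unlike length, where a longer one has more room for an overlap. The 2 kb window was the only setting of matched length. There the intervals overlapped, with 28.6% of clusters and 27.0% of regions of 2. A gap of 500 bp or less gave 1379 clusters with a median span of 1.52 kb, 23.3% of their peaks on KDM4B and 26.6 KDM4B peaks per 100 kb. A gap of 2000 bp or less gave 3814 clusters with a median span of 2.85 kb, 16.9% of peaks, 14.7 per 100 kb, and 15.8% of regions of 1 or 2 peaks with KDM4B. With 4 or more peaks required, there were 852 clusters with a median span of 2.775 kb, 19.3% of peaks and 17.7 per 100 kb. The 15.4% with KDM4B in that setting is for regions of fewer than 4 peaks. Without KO peaks of the smallest width, there were 1718 clusters, the median span was 2.02 kb, and KDM4B shares were 31.1% of clusters, 21.7% of their peaks and 16.8% of the other regions. Requiring an overlap of 50% of the shorter interval gave 17.0% of peaks, 17.3 per 100 kb and 12.9% of the other regions. Counting KDM4B within 1 kb gave 32.4% of clusters, 28.3% of peaks, 27.0 per 100 kb and 18.9% of the other regions. That 27.0 includes KDM4B peaks up to 1 kb outside a cluster but is divided by the clusters' own span. KDM4B peaks of at least the median width gave 23.2% of clusters, 16.4% of peaks, 13.5 per 100 kb and 11.02% of the other regions. A 2 kb window, chosen after seeing the data, gave 18.3% of the other regions. Leaving out WT surroundings, adding X and Y, leaving out H3 or KDM4B KO surroundings, and leaving out chromosome 10 from 79 to 81 Mb (also chosen after seeing the data) moved no value past its interval. The cause of these shifts was not tested. The gene setting alternatives were not run. Depth, scores and replicates are lacking, so a cluster cannot be ranked by strength, and a difference in threshold between the KO and WT libraries and the loss of KDM4B cannot be told apart as sources of peaks called in KO alone.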

Other observations

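Outside the autosomes, runs of 3 or more KO H3K9me3 peaks mostly coincided with WT H3K9me3. The X chromosome had 8 such regions, of which 2 overlapped no WT peak, and the Y had 7, all of which overlapped one. Both X regions without a WT peak lay near the end of the chromosome. One had 4 peaks over 4.56 kb from 166409654 to 166414215, overlapped 1 KDM4B peak and lay 6.47 kb from WT H3K9me3. The other had 10 peaks over 6.45 kb from 166440239 to 166446690, held no KDM4B and lay 1.06 kb from WT H3K9me3. Between them stood a region of 11 KO peaks over 23.2 kb that overlapped 14 WT peaks. The mitochondrial sequence, which carries no histones, had 1 region of 3 KO peaks covering 5.80 kb.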
